A study of Mus musculus with 12 samples.

Results

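Retinoic acid synthesis, transport and response were followed through 9 genes in mouse bladder and urethral mesenchyme: Aldh1a1, Aldh1a2, Aldh1a3, Stra6, Dhrs3, Crabp1, Crabp2, Cyp26b1 and Rarb. They were taken by gene symbol from the 55228 genes listed in both count tables, and all 9 were among the 18805 genes with enough counts to be tested. The samples were bladder mesenchyme and urethral mesenchyme at E18.5 (embryonic day, counted from mating), and the same pair of tissues at E14.5, with 3 libraries in each of the 4 groups. Every embryo was a wild-type, untreated female of the outbred CD-1 strain, and every library pooled the female embryos of 1 litter, with separate litters at the 2 stages. The mesenchymal layer had been freed from the epithelium by cold trypsin and forceps, so each library is a whole tissue layer that held several cell types.

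Retinoic acid is a diffusible signal made from vitamin A. Stra6 is a membrane receptor that brings retinol into cells from its plasma carrier. Retinol is oxidised to retinaldehyde, which Dhrs3 can reduce back, and the retinaldehyde dehydrogenases Aldh1a1, Aldh1a2 and Aldh1a3 make retinoic acid from it. The small proteins Crabp1 and Crabp2 bind retinoic acid in the cytoplasm, Cyp26b1 oxidises it to inactive products, and in the nucleus it binds receptors such as Rarb, which is also one of its classic target genes. In the lower urinary tract the pathway is known for its part in placing the ureters and in urothelial development. The study's stated aim was to find genes particular to either compartment.

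Library totals ranged from 21495169 to 36349777 counts, so that 3 counts stood for 0.0825 to 0.1396 CPM, counts scaled to the library total. On the first principal component, with 44.7% of the variance, the libraries of replicate 1 from E14.5 bladder and urethra were displaced toward the later stage. The 9 mesenchyme markers summed to 27400 to 32900 CPM in bladder and 16100 to 18000 CPM in urethral libraries at E18.5, and to 19000 to 25300 and 8050 to 12200 CPM at E14.5. Single markers went both ways, with 3 called higher and 4 lower in bladder at E18.5, and 5 and 4 at E14.5. At E18.5 the collagen Col1a1 stood at 9800 to 11800 CPM in bladder and 4540 to 5240 CPM in urethral libraries, and Pdgfra at 119 to 175 and 443 to 508 CPM. The 18 epithelium markers were not absent. They summed to 11900 to 15900 CPM in bladder and 4310 to 6520 CPM in urethral libraries at E18.5, against 410 to 2070 and 1000 to 2310 CPM at E14.5, where the highest sum of each group was that of replicate 1. At E18.5, 10 smooth muscle markers summed to 23500 to 43600 CPM in bladder and 2610 to 2910 CPM in urethral libraries, and 9 neuron markers to 79.8 to 186 and 687 to 1830 CPM. At E14.5 the smooth muscle sums were 6440 to 8560 CPM in bladder and 1680 to 3640 CPM in urethral libraries, and the neuron sums 90.2 to 419 and 640 to 995 CPM. The 8 mesothelium markers summed to 1810 to 2570 CPM in bladder and 563 to 782 CPM in urethral libraries at E18.5, and to 215 to 807 and 173 to 237 CPM at E14.5, and the 7 glia markers to 155 to 188 and 194 to 281 CPM at E18.5, and 29.0 to 82.0 and 95.9 to 156 CPM at E14.5. The 8 skeletal muscle markers summed to 466 to 694 CPM in bladder and 301 to 489 CPM in urethral libraries at E18.5, and to 2.55 to 22.3 and 4.47 to 67.7 CPM at E14.5. The bladder sum at E18.5 was nearly all Ckm, at 463 to 689 CPM against 28.9 to 38.2 CPM in urethral libraries. Of the 8 markers 1 was called higher and 7 lower in bladder at E18.5, with Myog at 0.0 to 0.576 CPM in bladder and 96.4 to 142 CPM in urethral libraries. Of the markers of these lists, Pax7, a skeletal muscle marker, was at 0 in the E14.5 bladder group, and no other was at 0 in a whole group. The part of these cell types in the results that follow was not tested, and in whole tissue layers fewer cells of a type cannot be told apart from less RNA per cell.

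At E18.5, 8 of the 9 genes differed between the compartments, against 34.8% of all tested genes. In bladder 7 were lower (Aldh1a2, Aldh1a3, Stra6, Crabp1, Crabp2, Cyp26b1 and Rarb), 1 was higher (Aldh1a1) and Dhrs3 was not past the threshold, an adjusted p under 0.05 in edgeR's quasi-likelihood test. Of all tested genes 16.2% were called lower in bladder in that comparison, and 3482 of 18805 higher. The median log2 difference was -1.78 over the 9 genes and 0.05 over all tested genes. At E14.5, 8 of the 9 were lower in bladder (5 without bladder replicate 2), against 12.5% of all tested genes, and 0 were higher, against 12.4%. The count of higher members was also 0 at an unadjusted p under 0.05, with DESeq2 and with limma-voom. The median at E14.5 was -1.24 over the 9 genes. The 9 genes, and the other retinoid lists used below, were chosen with earlier results of these data known. Their shares and medians, here and between stages, are therefore descriptions, and no excess over all tested genes can be inferred from them.

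**Figure D1:**
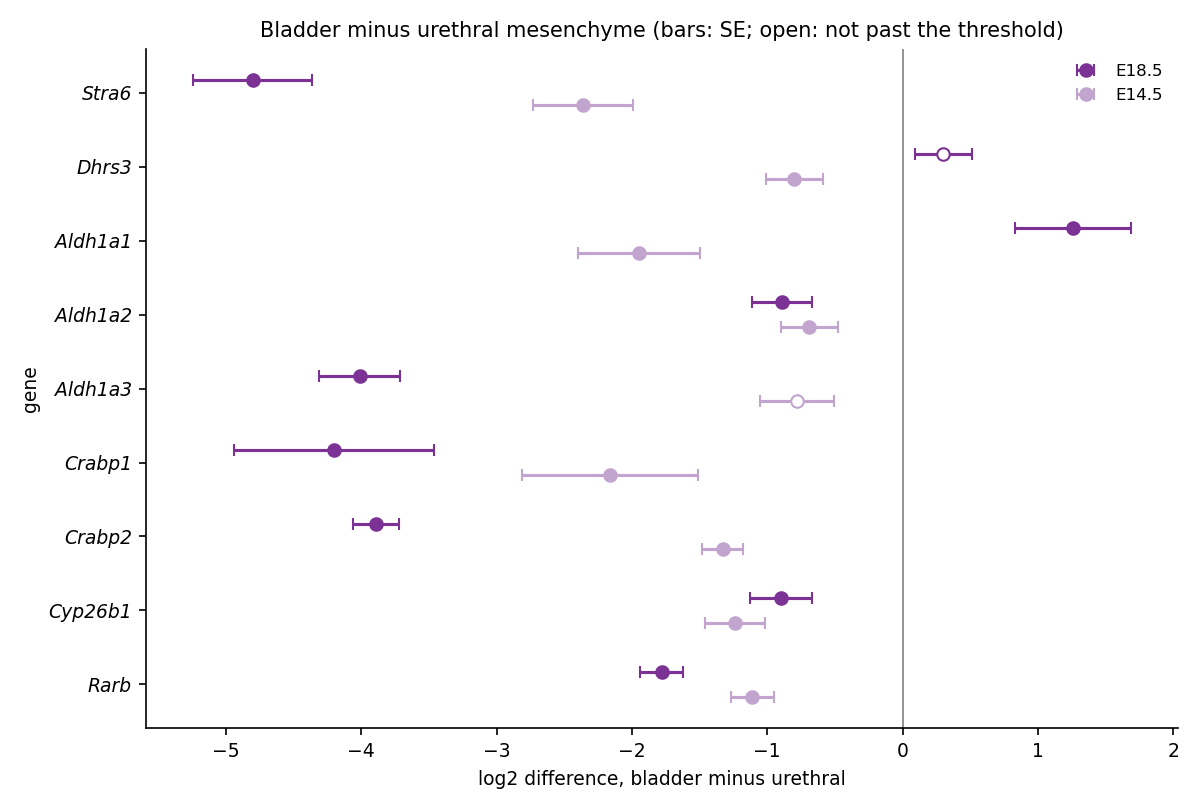
Log2 difference between bladder and urethral mesenchyme (horizontal axis, bladder minus urethral, bars show the SE) for each of the 9 genes at E18.5 and E14.5; open symbols did not pass the threshold. Stra6, Crabp1, Aldh1a3 and Crabp2 lie between -4.80 and -3.89 at E18.5, and Aldh1a1 lies on opposite sides of 0 at the 2 stages.

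Between the stages all 9 genes were called in bladder and 6 of them in urethra. In bladder mesenchyme 7 were lower at E18.5 than at E14.5 (5 on fitting only those 2 groups), against 22.0% of all tested genes, and 2 were higher (Aldh1a1 and Dhrs3), against 23.7%. In urethral mesenchyme 5 were lower at E18.5 (Aldh1a2, Stra6, Crabp2, Cyp26b1 and Rarb), against 10.8% of all tested genes, and Aldh1a3 alone was higher, against 13.6%. The median log2 difference of the 9 was -1.26 in bladder and -0.89 in urethral mesenchyme. The interaction term, which tests whether the difference between compartments itself changed between stages, was called for 5 of the 9: higher for Aldh1a1 and Dhrs3, against 4.64% of all tested genes, and lower for Aldh1a3, Stra6 and Crabp2, against 4.03%. The 2 stage comparisons share no libraries, while each compartment comparison shares its libraries with them.

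**Figure D2:**
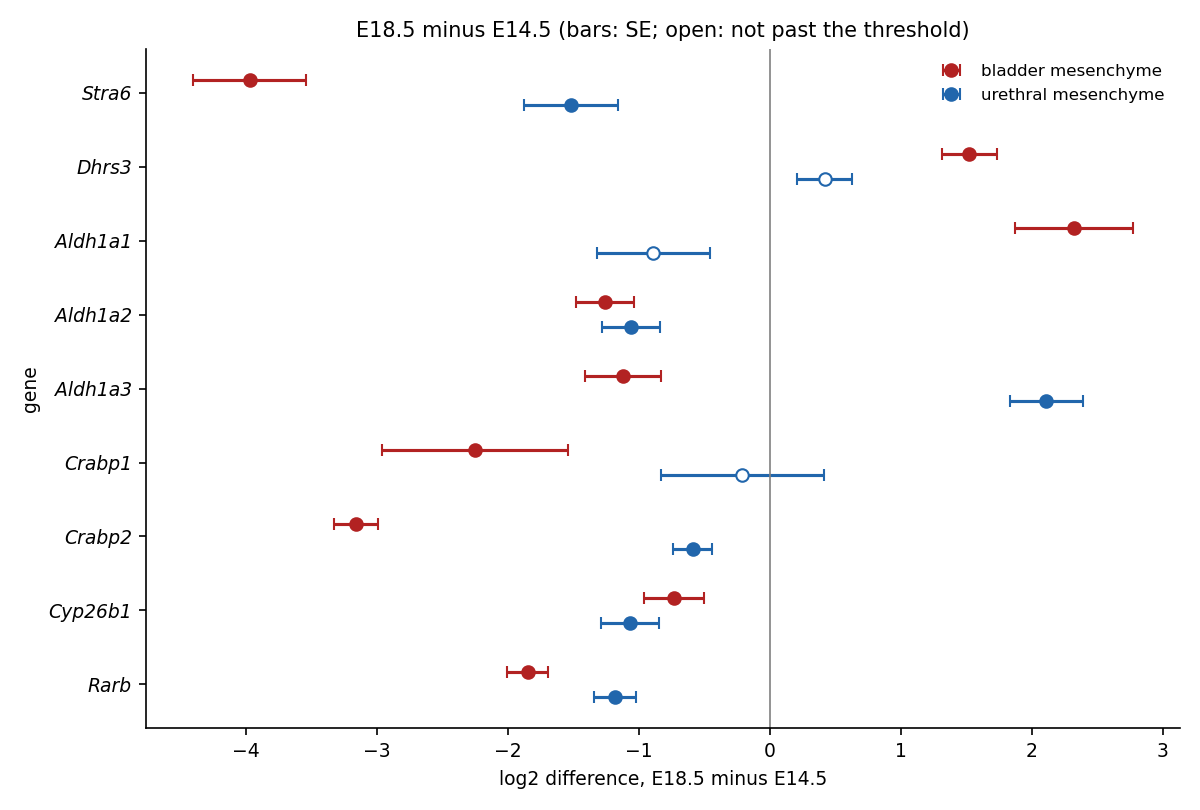
Log2 difference between stages (horizontal axis, E18.5 minus E14.5, bars show the SE) for each gene in bladder and in urethral mesenchyme; open symbols did not pass the threshold. Aldh1a1 is at 2.32 in bladder and -0.89 in urethra, and Aldh1a3 at -1.12 in bladder and 2.11 in urethra, while Aldh1a2 and Rarb lie below 0 in both.

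Among the 3 synthesising enzymes, Aldh1a2 was the main transcript in every group. It was the only one of the 3 called in the same direction between stages in both compartments. It lies on chromosome 9 (71215789 to 71296243, plus strand, GRCm38). Its levels at E18.5 were 120.4, 95.8 and 113.3 CPM in bladder and 230.5, 163.2 and 216.3 CPM in urethral libraries. At E14.5 they were 255.2, 194.6 and 338.1 CPM in bladder and 457.9, 318.5 and 491.4 CPM in urethral libraries. The compartments were separate at E18.5, whereas at E14.5 the highest bladder library exceeded the lowest urethral one. The log2 difference, bladder minus urethral, was -0.89 ± 0.22 (SE, adjusted p = 0.00642) at E18.5 and -0.69 ± 0.21 (adjusted p = 0.0353) at E14.5. The E14.5 call was lost on leaving out bladder replicate 1 or 2 or urethral replicate 1 or 3, with adjusted p of 0.07 to 0.124. It was also lost without replicate 1 of both groups (0.126) and, with all libraries kept, on fitting only the 2 groups compared (0.07). Aldh1a2 was lower at E18.5 than at E14.5 by a log2 difference of -1.26 ± 0.22 (adjusted p = 0.000564) in bladder and -1.06 ± 0.22 (adjusted p = 0.00491) in urethral mesenchyme. The interaction was -0.20 ± 0.30 (adjusted p = 0.732).

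Aldh1a3, the dehydrogenase best known from epithelia, had its highest level in urethra at E18.5. The gene is on chromosome 7 (66390890 to 66427517, minus strand). It stood at 3.48, 2.25 and 3.39 CPM in bladder and at 41.2, 74.2 and 33.2 CPM in urethral libraries at E18.5. At E14.5 the values were 7.18, 7.33 and 5.49 CPM in bladder and 12.7, 10.8 and 10.9 CPM in urethral libraries. The 4 groups did not overlap, with urethral E18.5 highest and bladder E18.5 lowest, and urethral replicate 2 of E18.5 above the other libraries. In bladder Aldh1a3 was 16.1-fold lower than in urethra at E18.5 (log2 -4.01 ± 0.30, adjusted p = 2.91e-06). The E14.5 difference of -0.78 ± 0.27 had an adjusted p of 0.0542, and passed with DESeq2 (0.0313), without the low-count filter (0.0404), under the stricter filter (0.0479) and on fitting only the 2 groups (0.0446). At E18.5 relative to E14.5, it fell in bladder (log2 -1.12 ± 0.29, adjusted p = 0.00684; 0.0814 with limma-voom) and rose in urethra (2.11 ± 0.28, adjusted p = 0.00047), and the interaction was -3.23 ± 0.40 (adjusted p = 0.00123). The epithelium markers, summed, were higher in bladder than in urethral libraries at E18.5, where Aldh1a3 was lower, with 7 of 18 called higher and 0 lower. In urethra 10 of 18 were called higher at E18.5 than at E14.5 and 0 lower, the direction of Aldh1a3. Urethral replicate 2 of E18.5, highest for Aldh1a3, held the highest epithelium (6520 CPM), neuron (1830), mesothelium (782) and glia (281) sums of its group. The skeletal muscle sum was highest in replicate 1 (489 CPM, against 407 in replicate 2). Of the 8 skeletal muscle markers 7 were called lower and 1 higher in bladder at E18.5, all 8 were called higher at E18.5 than at E14.5 in urethra and 1 in bladder, and 3 had a lower interaction, which are the directions of Aldh1a3 in urethra and between compartments. The part of these cells in the Aldh1a3 differences was not tested.

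Aldh1a1 went the other way, and was the one gene of the 9 called higher in bladder at E18.5. It lies on chromosome 19 (20492715 to 20643465, plus strand), and its near copy Aldh1a7 lies next to it on the minus strand (20692953 to 20727562), so that the division of reads between them is uncertain. Aldh1a1 stood at 19.6, 25.5 and 31.6 CPM in bladder and at 12.8, 7.21 and 11.9 CPM in urethral libraries at E18.5. At E14.5 it stood at 8.37, 2.65 and 4.37 CPM in bladder and at 31.5, 11.5 and 16.3 CPM in urethral libraries. At each stage the compartments were separate, bladder above urethra at E18.5 and below it at E14.5, and replicate 1 was the highest of both E14.5 groups. The log2 difference was 1.26 ± 0.43 (adjusted p = 0.0403) at E18.5 and -1.95 ± 0.45 (adjusted p = 0.00945) at E14.5, and the interaction 3.21 ± 0.62 (adjusted p = 0.00982). The E18.5 call was lost without the low-count filter (adjusted p = 0.116) and on leaving out any of the 6 libraries but bladder replicate 1, with log2 differences of 1.05 to 1.42 and adjusted p of 0.065 to 0.135. Aldh1a1 was 4.99-fold higher at E18.5 than at E14.5 in bladder (log2 2.32 ± 0.45, adjusted p = 0.00149), and the urethral difference was -0.89 ± 0.43 (adjusted p = 0.155). The summed epithelium and mesothelium markers were also higher in bladder than in urethra at E18.5, and higher at E18.5 than at E14.5. At E14.5, where Aldh1a1 was lower in bladder, 5 of 8 mesothelium markers were called higher and 0 lower there, and 2 of 18 epithelium markers higher and 4 lower. In urethra, where Aldh1a1 was not called between stages, 10 of 18 epithelium and 5 of 8 mesothelium markers were called higher at E18.5, and 0 and 1 lower. The part of these cells in the Aldh1a1 differences was not tested.

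**Figure D3:**
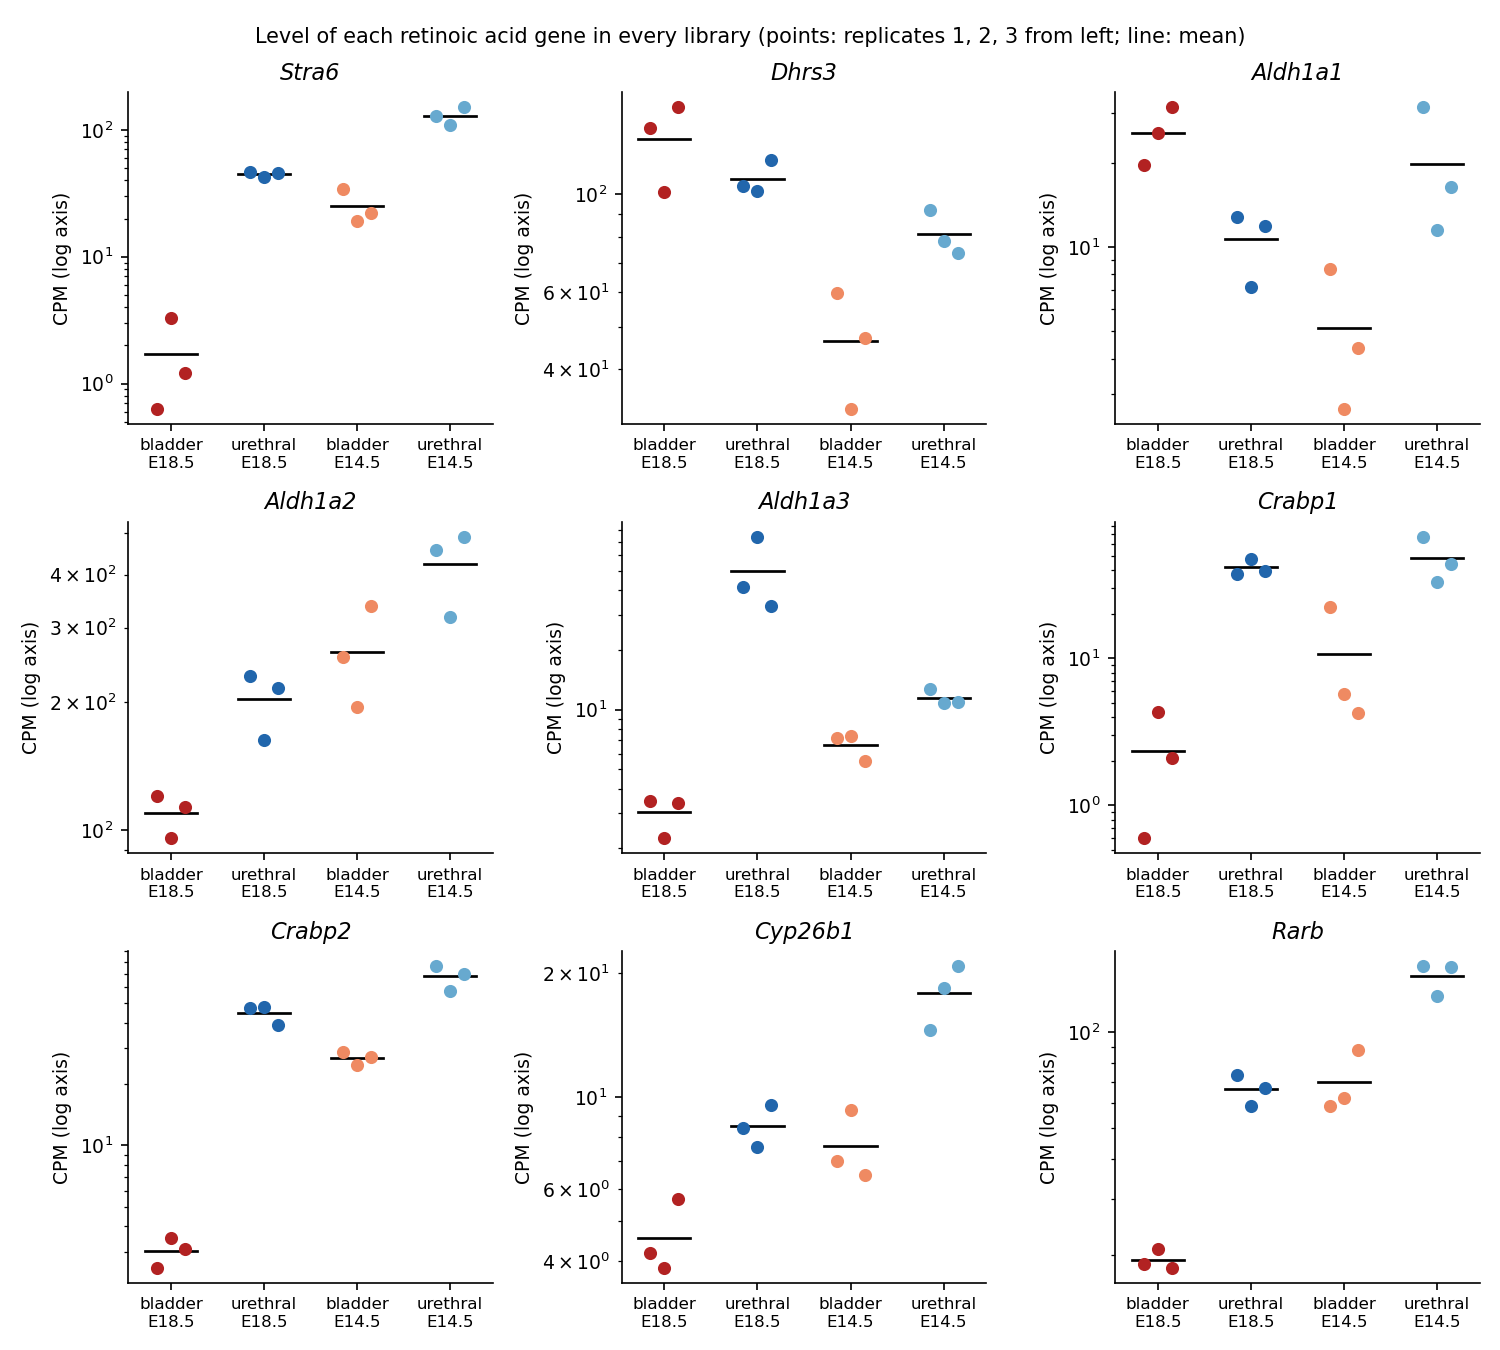
Level of each of the 9 genes (vertical axis, CPM, log scale) in every library of the 4 groups; points are replicates 1 to 3 from left to right and the line is the group mean. Bladder E18.5 is lowest for Aldh1a2, Aldh1a3, Stra6, Crabp1, Crabp2, Cyp26b1 and Rarb and highest in mean CPM for Aldh1a1 and Dhrs3.

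Levels of the 3 enzymes can be set side by side only per transcript length, in TPM, computed from the summed exon lengths. Aldh1a2 held 89.2% ± 2.32 (SD, n = 3) of the TPM summed over these 3 in bladder and 87.0% ± 5.75 in urethra at E18.5. At E14.5 it held 97.8% ± 0.74 in bladder and 96.6% ± 0.893 in urethra. The remainder was divided differently at E18.5. In bladder Aldh1a1 held 9.6% ± 2.39 and Aldh1a3 1.2% ± 0.159, while in urethra Aldh1a1 held 2.07% ± 0.382 and Aldh1a3 10.9% ± 6.13, with 17.9% in urethral replicate 2. At E14.5 Aldh1a1 held 0.885% ± 0.499 in bladder and 2.03% ± 0.852 in urethra, and Aldh1a3 1.31% ± 0.51 and 1.32% ± 0.272. The summed level of the 3 was 172.6 ± 24.4 TPM in bladder and 416.4 ± 59.4 TPM in urethra at E18.5, and 398.3 ± 94.1 and 768.4 ± 153.1 TPM at E14.5. Aldh1a7, the near copy of Aldh1a1, is not in these sums. It averaged 200.9 ± 35.8 TPM in bladder at E18.5, above the 154.1 TPM of Aldh1a2 there, and 71.6 ± 13.4 TPM in urethra. At E14.5 it averaged 32.4 ± 25.4 TPM in bladder and 68.8 ± 24.0 TPM in urethra. The division of reads between Aldh1a1 and Aldh1a7 is uncertain, and with it the Aldh1a1 share. All shares given here are descriptions with no test.

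**Figure D4:**
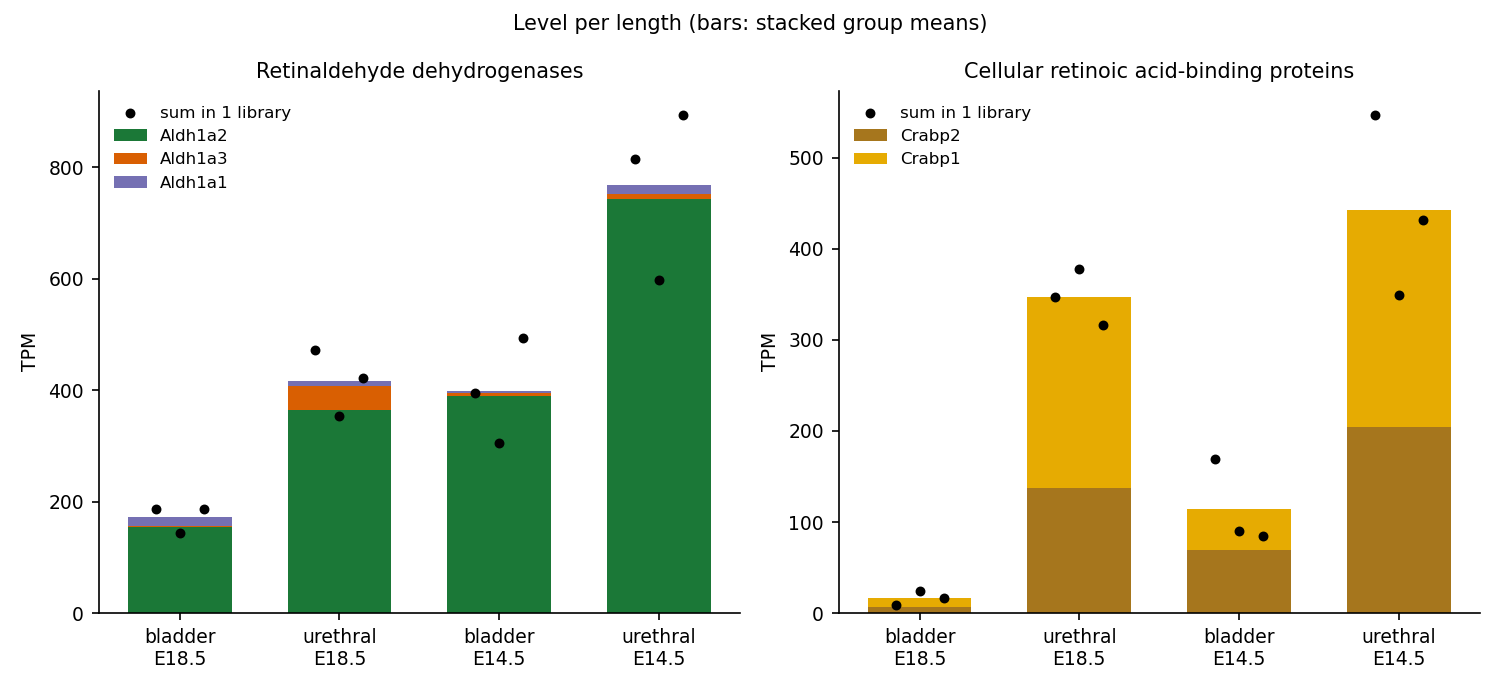
Summed level per length (vertical axis, TPM) of Aldh1a1, Aldh1a2 and Aldh1a3, without Aldh1a7, and of the Crabp carriers in the 4 groups. Stacked bars are group means and points are the sums in single libraries. Aldh1a2 fills most of each enzyme bar, and the carrier bar of bladder E18.5 is 16.3 TPM high against 346.9 TPM for urethra E18.5.

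Stra6, the retinol receptor, had the largest compartment difference of the 9 genes at E18.5. The gene (chromosome 9, 58063788 to 58153996, plus strand) had only 17, 61 and 38 counts in the 3 bladder libraries of E18.5, which is 0.635, 3.27 and 1.22 CPM, against 46.3, 42.65 and 46.05 CPM in urethral libraries. The E14.5 levels were 34.3, 19.1 and 22.2 CPM in bladder and 127.5, 109.5 and 150.9 CPM in urethral libraries. The 4 groups did not overlap, and even the lowest bladder library of E14.5 exceeded every bladder library of E18.5. Stra6 was 27.9-fold lower in bladder at E18.5 (log2 -4.80 ± 0.44, adjusted p = 1.87e-05) and 5.13-fold lower at E14.5 (log2 -2.36 ± 0.37, adjusted p = 0.00134). The E18.5 difference was -5.58 without bladder replicate 2, the highest of its group. At E18.5 relative to E14.5, Stra6 fell 15.6-fold in bladder (log2 -3.97 ± 0.43, adjusted p = 4.71e-05; -4.74 without bladder E18.5 replicate 2) and 2.87-fold in urethra (log2 -1.52 ± 0.36, adjusted p = 0.011). The interaction was -2.44 ± 0.55 (adjusted p = 0.0198) and -3.22 without bladder E18.5 replicate 2, and its call was lost without bladder E18.5 replicate 3 (adjusted p = 0.058) and without the low-count filter (0.0656).

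Dhrs3, which returns retinaldehyde to retinol and is itself induced by retinoic acid in several tissues, was the other gene whose mean CPM was highest in bladder at E18.5, although its mean TPM was highest in urethra. Its locus is on chromosome 4 (144892827 to 144928209, plus strand). At E18.5 it stood at 141.7, 101.1 and 157.9 CPM in bladder and at 104.2, 101.7 and 119.7 CPM in urethral libraries, which overlapped. At E14.5 it stood at 59.6, 32.6 and 47.3 CPM in bladder, all below the 92.0, 78.2 and 73.4 CPM of the urethral libraries. The log2 difference was 0.30 ± 0.21 (adjusted p = 0.296) at E18.5 and -0.80 ± 0.21 (adjusted p = 0.0153) at E14.5, with 0.0504 in place of the last value without bladder replicate 2. Dhrs3 rose 2.88-fold at E18.5 relative to E14.5 in bladder (log2 1.52 ± 0.21, adjusted p = 0.000128). The urethral difference was 0.42 ± 0.21 (adjusted p = 0.158; 0.0324 on fitting only those 2 groups). The interaction of 1.10 ± 0.29 (adjusted p = 0.0355) lost its call on leaving out any library but bladder E14.5 replicate 1 or bladder E18.5 replicate 2, with adjusted p of 0.0535 to 0.0846. Per length, Dhrs3 averaged 145.4 TPM in bladder, close to the 154.1 TPM of Aldh1a2 there at E18.5, whereas in urethra it averaged 150.1 TPM against 364.4 TPM of Aldh1a2.

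Both carriers were scarce in bladder at E18.5 and higher in urethra at each stage. Crabp2, which delivers retinoic acid to nuclear receptors, lies on chromosome 3 (87948666 to 87953376, plus strand). It stood at 2.50, 3.49 and 3.10 CPM in bladder and at 47.5, 48.2 and 38.9 CPM in urethral libraries at E18.5. Levels at E14.5 were 28.75, 24.8 and 27.3 CPM in bladder and 76.1, 57.6 and 69.5 CPM in urethral libraries. The groups did not overlap, and the 3 bladder libraries of each stage lay close together. Crabp2 was 14.9-fold lower in bladder at E18.5 (log2 -3.89 ± 0.17, adjusted p = 1.29e-07) and 2.51-fold lower at E14.5 (log2 -1.33 ± 0.15, adjusted p = 0.000144). It fell 8.92-fold at E18.5 relative to E14.5 in bladder (log2 -3.16 ± 0.17, adjusted p = 1.18e-06) and 1.51-fold in urethra (log2 -0.59 ± 0.15, adjusted p = 0.0116), and the urethral call was lost without replicate 3 of E18.5 (adjusted p = 0.059). The interaction was -2.56 ± 0.22 (adjusted p = 0.000673), past the threshold in all fits run.

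Crabp1, a carrier linked mainly to retinoic acid sequestration and breakdown, varied more between libraries. The locus is on chromosome 9 (54764748 to 54773110, plus strand). At E18.5 it had 16, 80 and 66 counts in the bladder libraries, which is 0.598, 4.29 and 2.11 CPM, against 37.8, 47.45 and 39.5 CPM in urethral libraries. At E14.5 it stood at 22.35, 5.76 and 4.28 CPM in bladder and at 67.5, 33.15 and 44.1 CPM in urethral libraries, with replicate 1 the highest of both groups. The compartments were separate at each stage, while bladder libraries of the stages overlapped. Crabp1 was 18.4-fold lower in bladder at E18.5 (log2 -4.20 ± 0.74, adjusted p = 0.00124), and -4.91 on the log2 scale without bladder replicate 2. At E14.5 the difference was -2.16 ± 0.65 (adjusted p = 0.0348). Without bladder replicate 1 it was -3.28 (adjusted p = 0.00143), and the call was lost on leaving out bladder replicate 2 or 3 or urethral replicate 1 or 3 (adjusted p = 0.0681 to 0.108). That call was also lost without the low-count filter (adjusted p = 0.106). The fall in bladder at E18.5 relative to E14.5 (log2 -2.25 ± 0.71, adjusted p = 0.0233) rested on overlapping libraries. Without bladder E14.5 replicate 1 it was -1.17 (adjusted p = 0.0945), and without bladder E18.5 replicate 2 it was -2.96. The call was also lost without bladder E18.5 replicate 1 (adjusted p = 0.0744) or 3 (0.0741). The same held without the low-count filter (0.078) and on fitting only the 2 bladder groups (0.1). In urethra the stage difference was -0.21 ± 0.62 (adjusted p = 0.831) and the interaction -2.04 ± 0.93 (adjusted p = 0.21). All 9 neuron markers were called lower in bladder at E18.5 and 8 of 9 at E14.5, the direction of Crabp1. Bladder replicate 1 of E14.5, highest for Crabp1, also held the highest neuron sum of its group, 419 CPM. It held the highest epithelium (2070 CPM), mesothelium (807), glia (82.0), smooth muscle (8560) and skeletal muscle (22.3) sums as well, though not the highest mesenchyme sum. In bladder at E18.5 the neuron sum was highest in replicate 3 (186 CPM), and Crabp1 in replicate 2. The part of neurons in the Crabp1 differences was not tested.

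Per length the carriers together summed to 16.3 ± 7.77 TPM in bladder and 346.9 ± 31.0 TPM in urethra at E18.5, and to 114.7 ± 47.4 and 442.3 ± 99.1 TPM at E14.5. Crabp2 held 50.6% ± 19.6 (SD, n = 3) of that sum in bladder and 39.6% ± 3.21 in urethra at E18.5, and 65.2% ± 18.9 and 46.9% ± 5.6 at E14.5. Its share in bladder therefore varied so widely between libraries that no order of the 2 carriers could be read there, whereas in urethra at E18.5 Crabp1 was above Crabp2 in mean TPM (209.5 against 137.4).

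Cyp26b1, the retinoic acid hydroxylase of many embryonic mesenchymes, was low, and its compartment difference was of like size at both stages. Its gene lies on chromosome 6 (84571414 to 84593908, minus strand). It stood at 4.19, 3.86 and 5.66 CPM in bladder and at 8.42, 7.58 and 9.59 CPM in urethral libraries at E18.5. Its E14.5 values were 6.99, 9.32 and 6.49 CPM in bladder and 14.6, 18.45 and 20.8 CPM in urethral libraries. Urethral libraries were above bladder libraries at both stages, with log2 differences of -0.90 ± 0.23 (adjusted p = 0.00801) at E18.5 and -1.24 ± 0.22 (adjusted p = 0.00229) at E14.5. It fell between stages in urethra (log2 -1.07 ± 0.22, adjusted p = 0.00519) and in bladder (-0.73 ± 0.23, adjusted p = 0.0197). The bladder call was lost without bladder E14.5 replicate 2 or bladder E18.5 replicate 1 or 2 (adjusted p = 0.0626 to 0.0873). It was also lost on fitting only the 2 bladder groups (0.0541). The interaction was 0.34 ± 0.32 (adjusted p = 0.55).

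Rarb, the receptor that is also a target of retinoic acid, was lower in bladder at both stages and lower at E18.5 in both compartments. It lies on chromosome 14 (16430839 to 16819156, minus strand). It stood at 18.8, 20.9 and 18.3 CPM in bladder and at 73.5, 58.7 and 66.7 CPM in urethral libraries at E18.5. At E14.5 it stood at 58.8, 62.4 and 87.9 CPM in bladder and at 161.6, 130.4 and 160.1 CPM in urethral libraries. Compartments were separate at each stage, and bladder at E14.5 overlapped urethra at E18.5. Rarb was 3.44-fold lower in bladder at E18.5 (log2 -1.78 ± 0.16, adjusted p = 9.64e-06) and 2.16-fold lower at E14.5 (log2 -1.11 ± 0.16, adjusted p = 0.000523). At E18.5 relative to E14.5, it fell 3.61-fold in bladder (log2 -1.85 ± 0.16, adjusted p = 9.42e-06) and 2.27-fold in urethra (log2 -1.18 ± 0.16, adjusted p = 0.000489). The interaction was -0.67 ± 0.22 (adjusted p = 0.0826), and passed without bladder E14.5 replicate 1 (-0.79, adjusted p = 0.0367). Of the exon bases of Rarb, 38.4% lie under exons of the opposite-strand genes Top2b and Gm48162, and the strand setting of the counting is not given in the sources used here. Top2b was not called in any of the 5 comparisons and averaged 247.1 ± 41.8 CPM in bladder and 264.1 ± 21.1 CPM in urethra at E18.5, and 281.0 ± 29.2 and 331.8 ± 58.7 CPM at E14.5.

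Retinoic acid receptors bind pairs of a 6-base half-site, and the Rarb promoter is a textbook case. Windows from 250 bases before to 50 bases after a transcript start, from RefSeq (GRCm38.p6), were found for 7 of the 9 genes, 13 windows in all. They were searched on both strands for the half-sites AGGTCA or GGGTCA or AGTTCA or GGTTCA and for direct repeats of them with 1, 2 or 5 bases between. A direct repeat was found in 1 of the 13 windows, that of Rarb, which has 5 bases between its half-sites. Of 35 other retinoid pathway genes with a window, only Cyp26a1, a close relative of Cyp26b1, had one, of the same spacing and on the other strand. Such a repeat was present in 0.0974% of all 32851 windows, a repeat with 1 base between in 0.222%, a repeat with 2 bases in 0.268% and a single half-site in 43.7%. Both windows are shown because they hold the repeat, with half-sites in capitals, read 5' to 3' in the direction of the gene: the Rarb window is chr14:16575427-16575726 (minus strand), with the repeat from 53 to 37 bases before the start, and the Cyp26a1 window is chr19:37697558-37697857 (plus strand).
Rarb: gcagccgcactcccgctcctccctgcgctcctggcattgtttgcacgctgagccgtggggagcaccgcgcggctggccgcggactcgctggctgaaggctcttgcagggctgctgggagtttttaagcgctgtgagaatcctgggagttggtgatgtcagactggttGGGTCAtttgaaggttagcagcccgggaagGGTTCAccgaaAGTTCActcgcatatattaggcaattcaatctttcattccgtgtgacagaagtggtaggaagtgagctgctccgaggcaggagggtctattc
Cyp26a1: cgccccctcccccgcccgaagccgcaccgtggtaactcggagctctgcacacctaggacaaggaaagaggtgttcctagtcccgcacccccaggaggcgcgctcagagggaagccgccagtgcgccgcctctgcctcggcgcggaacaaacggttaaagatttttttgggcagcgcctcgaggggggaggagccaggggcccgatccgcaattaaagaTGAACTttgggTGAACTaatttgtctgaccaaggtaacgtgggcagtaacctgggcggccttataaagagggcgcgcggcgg
The Rarb window also holds a single GGGTCA further from the start. That window lies inside the gene, whose 5' end is at 16819156, so its start is an internal one. The counts are per gene and do not part transcripts by start. A match in letters is a description, and its use in these tissues was not measured.

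The levels of Cyp26a1 itself were near the limit of counting in bladder. It had 0, 4 and 4 counts in the bladder libraries and 83, 18 and 55 counts in the urethral libraries of E18.5, and 15, 2 and 10 against 66, 49 and 34 counts at E14.5. The log2 difference was -3.76 ± 0.83 (adjusted p = 0.00367) at E18.5 and -2.06 ± 0.71 (adjusted p = 0.0507) at E14.5. As with Rarb, urethral libraries were the higher ones at both stages.

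Beyond the 9 genes, 50 other genes of the retinoid pathway were listed, of which 44 were tested. At E18.5, 13 (29.5%) were called higher and 14 (31.8%) lower in bladder, against 3482 of 18805 and 16.2% of all tested genes, with a median log2 difference of 0.28. At E14.5, 7 (15.9%) were higher and 11 (25.0%) lower in bladder, against 12.4% and 12.5%, with a median of -0.11. At E18.5 relative to E14.5, 15 (34.1%) rose and 8 (18.2%) fell in bladder, against 23.7% and 22.0%, and 11 (25.0%) rose and 5 (11.4%) fell in urethra, against 13.6% and 10.8%. The compartment calls thus went both ways, while between stages more of these genes rose than fell in both compartments.

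Plasma carriers and retinol handling genes included several that were high in bladder. Ttr, transthyretin, which carries retinol-binding protein in plasma, stood at 71.4, 41.7 and 62.4 CPM in bladder and 4.16, 5.04 and 5.79 CPM in urethral libraries at E18.5 (log2 3.55 ± 0.68, adjusted p = 0.00215). At E14.5 it had 459, 116 and 42 counts in bladder and 6, 8 and 4 in urethral libraries (5.52 ± 0.89, adjusted p = 0.00184). Rbp4, the retinol-binding protein that Stra6 recognises, stood at 34.8, 48.6 and 35.1 CPM in bladder and 14.1, 14.9 and 21.45 CPM in urethral libraries at E18.5, and at 2.97, 4.475 and 1.99 against 19.6, 5.55 and 7.34 CPM at E14.5. Like Aldh1a1 it was higher in bladder at E18.5 (1.23 ± 0.42, adjusted p = 0.0398) and lower at E14.5 (-1.77 ± 0.45, adjusted p = 0.0151), with an interaction of 3.01 ± 0.62 (adjusted p = 0.0126). Stra6l, a relative of Stra6, was lower in bladder at E14.5 (-3.37 ± 0.77, adjusted p = 0.0083), and Rbp7, a cellular retinol-binding protein, rose with stage in bladder (3.68 ± 0.71, adjusted p = 0.00127) and urethra (2.72 ± 0.71, adjusted p = 0.0158).

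Of 12 tested retinol and retinal oxidoreductases, 5 were higher and 1 lower in bladder at E18.5, against 3482 of 18805 and 16.2% of all tested genes. Adh1, an alcohol dehydrogenase that oxidises retinol, was higher at E18.5 than at E14.5 in bladder (3.94 ± 0.86, adjusted p = 0.00364) and in urethra (3.38 ± 0.85, adjusted p = 0.0161). Adh7, another retinol-oxidising enzyme, had 318, 641 and 774 counts at E18.5 and 12, 0 and 5 counts at E14.5 in bladder (6.55 ± 0.82, adjusted p = 9.23e-05). Dhrs9, a dehydrogenase of the same pathway step, had 8, 19 and 6 counts at E18.5 and 0, 0 and 0 counts at E14.5 in urethra (adjusted p = 0.00936), which gives no estimate of the fold. All 18 epithelium markers were called higher at E18.5 in bladder and 10 of 18 in urethra, against 23.7% and 13.6% of all tested genes. Aldh1a7 stood at 116.4, 122.3 and 153.6 CPM in bladder and 29.6, 35.9 and 44.4 CPM in urethral libraries at E18.5 (1.84 ± 0.46, adjusted p = 0.00921), the direction of its neighbour Aldh1a1, while at E14.5 the difference was -0.87 ± 0.45 (adjusted p = 0.185). Rdh10, the main retinol dehydrogenase of the mouse embryo, picked out after its values were seen, had the same order of group means as Aldh1a2. It averaged 28.1 ± 3.77 CPM in bladder and 59.1 ± 11.7 CPM in urethra at E18.5, and 85.7 ± 22.3 and 134.8 ± 24.4 CPM at E14.5. It was called in all 4 compartment and stage comparisons, at -1.07 ± 0.20 (adjusted p = 0.00136) and -0.65 ± 0.20 (adjusted p = 0.0326) for bladder minus urethral at E18.5 and E14.5, and -1.61 ± 0.21 (adjusted p = 7.82e-05) and -1.19 ± 0.20 (adjusted p = 0.00185) for E18.5 minus E14.5 in bladder and urethra.

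**Figure D5:**
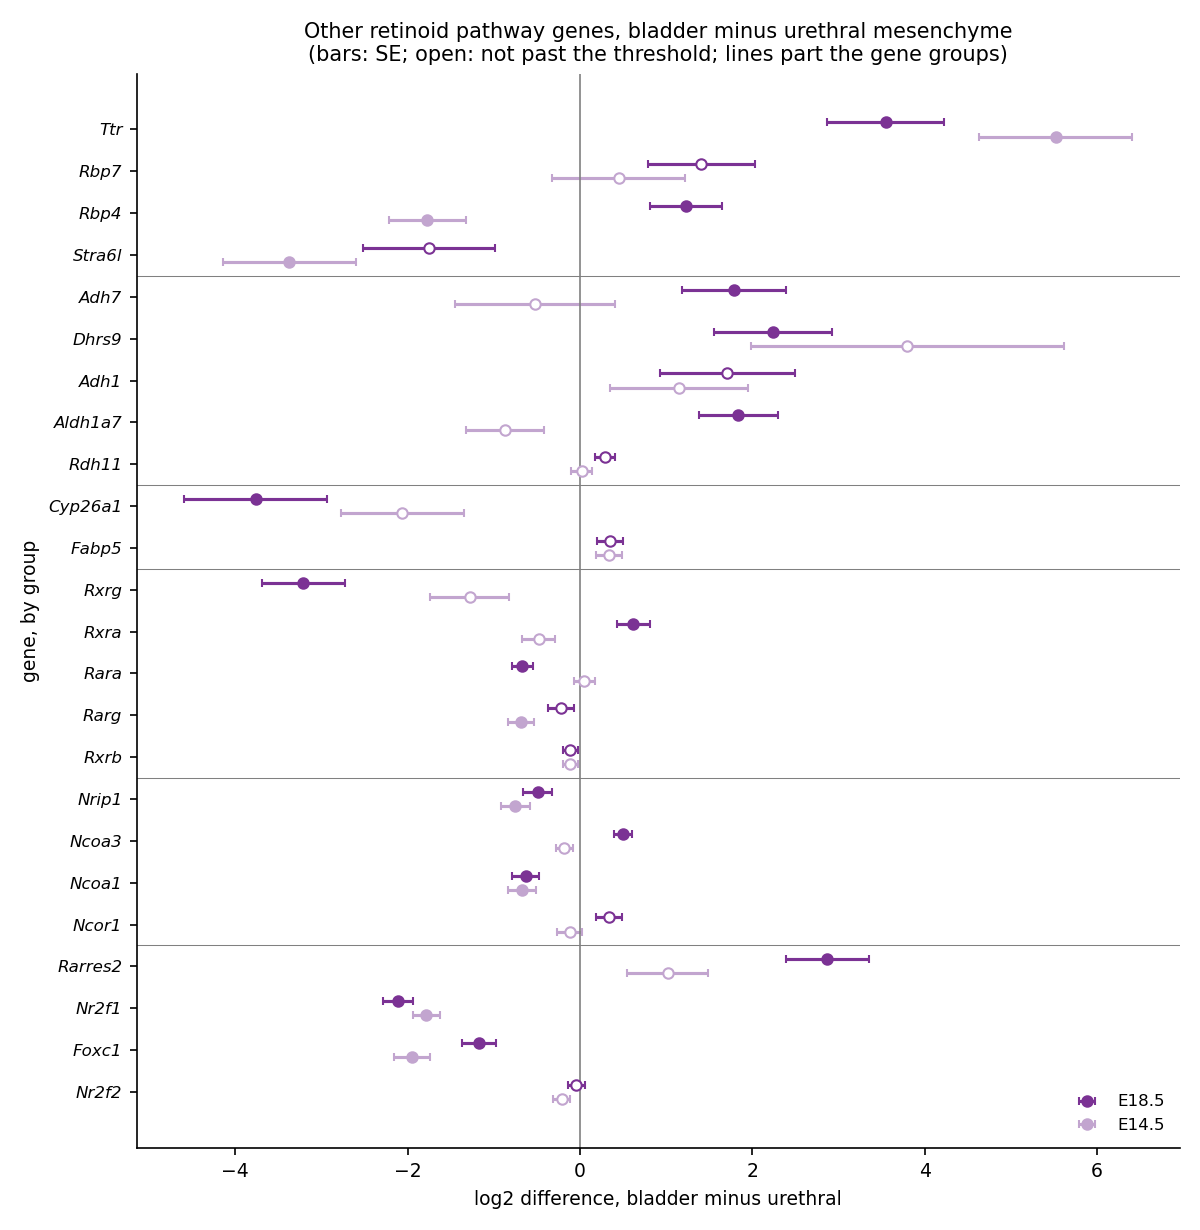
Log2 difference between bladder and urethral mesenchyme (horizontal axis, bladder minus urethral, bars show the SE) for the retinoid pathway genes shown outside the 9, at E18.5 and E14.5; open symbols did not pass the threshold. Ttr lies farthest to the right at E14.5 (5.52), and Cyp26a1 farthest to the left at E18.5 (-3.76); the E14.5 symbol of Dhrs9 is a fitted value against urethral libraries with 0 counts and is no estimate of a fold.

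Among the other receptors, 1 of 5 was called higher and 2 lower in bladder at E18.5, against 3482 of 18805 and 16.2% of all tested genes. Rxrg, a rexinoid receptor that pairs with the retinoic acid receptors, was lower in bladder (-3.21 ± 0.48, adjusted p = 0.00026), with 8, 12 and 40 counts in bladder and 243, 200 and 229 counts in urethral libraries. Rara was lower (-0.67 ± 0.12, adjusted p = 0.000747) and Rxra higher (0.62 ± 0.19, adjusted p = 0.024). Rarg was lower in bladder at E14.5 (-0.68 ± 0.15, adjusted p = 0.00721), and Rxrb was called in none of the 5 comparisons.

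Genes that retinoic acid induces in other embryonic settings went both ways. Of 12 tested, 4 were higher and 5 lower in bladder at E18.5, against 3482 of 18805 and 16.2% of all tested genes. At E14.5, 4 were higher and 3 lower, against 12.4% and 12.5%. Nr2f1, an orphan nuclear receptor, was called in the direction of Rarb in all 4 compartment and stage comparisons. It stood at 29.9, 28.75 and 22.3 CPM in bladder and 125.3, 106.5 and 115.9 CPM in urethral libraries at E18.5 (-2.11 ± 0.17, adjusted p = 4.23e-06; -1.78 ± 0.16, adjusted p = 4.9e-05, at E14.5). It was lower at E18.5 than at E14.5 in bladder (-1.55 ± 0.17, adjusted p = 2.55e-05) and urethra (-1.22 ± 0.16, adjusted p = 0.000489). Foxc1, a forkhead factor, was lower in bladder at both stages (-1.17 ± 0.20, adjusted p = 0.000757, at E18.5 and -1.95 ± 0.21, adjusted p = 0.000113, at E14.5). Rarres2, which encodes chemerin, was higher in bladder at E18.5 (2.87 ± 0.48, adjusted p = 0.000949), with 33.6% of its exon bases under exons of the opposite strand. Nr2f2, the relative of Nr2f1, was called in none of the 5 comparisons.

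Across the 12 libraries the members' patterns were compared by Pearson's r of log2 CPM with those of 12147 genes. These had a mean of at least 5 CPM, and predicted genes and pseudogenes were left out. The comparison is a description in which the libraries share stage and compartment. The genes most like Rarb were Ube2e3 (r = 0.995) and Hoxd12 (0.988), those most like Crabp2 were Pcbp4 (0.994) and Doc2b (0.992), and those most like Stra6 were Rimklb (0.986) and Cacng7 (0.984). Aldh1a2 was closest to Zkscan5 (0.971), Aldh1a1 to Efemp1 (0.957), Aldh1a3 to Tanc2 (0.955), Crabp1 to Synpr (0.979), Cyp26b1 to Camk1g (0.969) and Dhrs3 to Fgd4 (0.971). Between members, Stra6 and Crabp2 were the most alike (r = 0.98), and Aldh1a1 was closest to Dhrs3 (r = 0.81).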

How the data were processed

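Poly(A)-selected directional libraries were read as pairs of 100 bp, per the labels' protocols. HISAT2 2.2.1, SAMtools 1.9, bcl2fastq and the GRCm38 build are listed in the submitters' processing notes. How genes were counted (tool, strand setting, annotation) is not given in the sources used here. The authors deposited unnormalised counts for each gene, in 1 table per stage. Values of 2 outnumbered values of 1 by 2.06 to 2.51 times, so a pair may give 2 counts, and floors cover counting error only.

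Genes kept by edgeR 4.0.16 filterByExpr (minimum count 10) were scaled by TMM and tested with robust quasi-likelihood F tests (R 4.3.3) in 1 model of 4 group means over 12 libraries, with Benjamini-Hochberg adjustment over all tested genes and a threshold of 0.05. CPM are TMM-scaled. TPM use the summed exon lengths of the files. The members and the gene lists were chosen with earlier results of these data known. Named pathway genes were, per list, up to 4 with the largest called difference and the most abundant called in none; likeness took genes with a mean of at least 5 CPM and a prior count of 2, leaving out predicted genes and pseudogenes. A few genes that the rule gives are not reported here.

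Same-numbered bladder and urethral libraries of E18.5 deviated together from their group means (correlations 0.197, 0.193 and 0.286), so their numbers were taken to pair them. The main model held no replicate block, so its differences, SE and p are unpaired at both stages. The block was fitted only as an alternative, also for E14.5, where numbers were not taken as pairs. Alternatives were DESeq2 1.42.0, limma-voom (limma 3.58.1), median-ratio size factors, no filter, a stricter filter, each library left out, only the groups compared, and replicate number as a block.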

Additional observations from a re-analysis of the deposited data

Results flagged for a closer look

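The difference between bladder and urethral mesenchyme was itself different at E18.5 and E14.5, by edgeR's interaction term, for 5 of the 9 genes. For Aldh1a1 the change of the difference was 3.21 on the log2 scale, with bladder higher at E18.5 and lower at E14.5. For Dhrs3 it was 1.10, with bladder not called at E18.5 and lower at E14.5. For Aldh1a3 it was -3.23, for Crabp2 -2.56 and for Stra6 -2.44, with the bladder minus urethral difference further below 0 at E18.5 than at E14.5 in each. No group was large enough for a check of single libraries against their group.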

How the results depend on the processing

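Of 648 recomputed values of the 9 genes, 596 kept their direction and side of the threshold, 42 lost a call, 7 gained one and 3, never called, changed sign. Those were the stage difference of Crabp1 in urethra (-0.42 to 0.11 on leaving out 1 library, positive without urethral E14.5 replicate 1, and 0.13 without replicate 1 of both E14.5 groups) and the interaction of Aldh1a2 (-0.38 to 0.02, positive without bladder E14.5 replicate 3). The cause was not tested.

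On fitting only the 2 groups compared, 1364 genes were higher in bladder at E14.5 (2335 in the fit of all groups), 2 members rose in urethra (1 in that fit) and 5 fell in bladder (7 in that fit; 6 with limma-voom or no filter). With no filter 0 members were higher in bladder at E18.5, and DESeq2 called 1333 genes lower in the interaction (758 with edgeR). Shares from CPM in place of TPM were, for Aldh1a2, 79.3% in bladder and 76.8% in urethra at E18.5 and 95.5% and 93.1% at E14.5, and for Crabp2 51.9% in urethra at E18.5 and 59.2% at E14.5.

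Leaving out 1 library gave 5 to 8 members lower in bladder at E14.5 (5 without bladder replicate 2), 0 to 1 higher at E18.5, 5 to 7 falling in bladder, 4 to 5 falling in urethra, and 1 to 2 higher and 2 to 4 lower interactions. Of all genes, 1412 to 2182 were then higher and 1279 to 2714 lower in bladder at E14.5, 2573 to 3017 and 2546 to 2628 at E18.5, 3522 to 4455 rose and 3096 to 4054 fell in bladder, 1482 to 2672 rose and 910 to 1981 fell in urethra, and 509 to 1407 and 481 to 981 had a higher or lower interaction (1362 and 1155 without replicate 1 of both E14.5 groups). The Aldh1a2 share ranged over 87.8 to 90.1% and 85.1 to 90.3% at E18.5 (bladder, urethra) and 97.4 to 98.1% and 96.2 to 97.2% at E14.5. The Crabp2 share ranged over 40 to 59.5% and 37.8 to 40.7% at E18.5, and 58 to 75.9% and 44.8 to 50.1% at E14.5.

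With the replicate number as a block, 0 of 27 member calls changed, and the members' counts stayed at 0 higher and 8 lower in bladder at E14.5, 1 and 7 at E18.5, and 2 and 3 in the interaction. For the other retinoid genes the block gave 12 higher and 14 lower at E18.5 (13 and 14 without it), 7 and 12 at E14.5 (7 and 11), and 8 and 5 in the interaction (5 and 4). Each litter gave both tissues, but no label ties a number to a litter; same-numbered libraries of E14.5 deviated at 0.191, -0.0285 and 0.206 and were not taken as pairs. The stage comparisons hold separate litters and have no pairing. Counts of 16 to 80 for Stra6 and Crabp1 in bladder at E18.5 limit the precision there.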

Other observations

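Of 6 receptor cofactors, which receptors recruit to switch genes on or off, 1 was called higher and 4 lower in bladder at E18.5, and 3 were lower at E14.5, with the others not called. Of all tested genes 3482 of 18805 were higher and 16.2% lower in bladder at E18.5, and 12.5% lower at E14.5. Nrip1, a corepressor of ligand-bound receptors, was lower in bladder at both stages (log2 -0.49 ± 0.17, adjusted p = 0.0391, at E18.5 and -0.75 ± 0.17, adjusted p = 0.00801, at E14.5), and so was the coactivator Ncoa1 (-0.63 ± 0.16, adjusted p = 0.00939, and -0.67 ± 0.16, adjusted p = 0.0113). Ncoa3, another coactivator, was higher in bladder at E18.5 (0.50 ± 0.10, adjusted p = 0.00153) and at -0.18 ± 0.10 at E14.5 (adjusted p = 0.185), with an interaction of 0.68 ± 0.14 (adjusted p = 0.01). Fabp5, which can carry retinoic acid to another nuclear receptor, and the corepressor Ncor1 were called in none of the 5 comparisons; their bladder minus urethral differences at E18.5 were 0.35 ± 0.15 (adjusted p = 0.087) and 0.34 ± 0.15 (adjusted p = 0.104).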
